A study of Mus musculus with 8 samples.

Results

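The genes described here are the chemokines and their receptors, taken as every gene symbol of the CC, CXC, CX3C and atypical receptor series (*Ccl*, *Cxcl*, *Cx3cl1*, *Ccr*, *Cxcr* and *Ackr* followed by a number). The rule found 58 of the 24063 symbols in the tables, 38 ligands and 20 receptors. They were measured by RNA-Seq in tubuloids, three-dimensional epithelial structures that grow in Matrigel from tubule fragments of mouse kidney. All 8 cultures came from kidneys of postnatal day 7-10 mice with floxed *Pkd2* alleles, a *Pax8*-driven rtTA, a TetO-driven Cre and the mTmG reporter (Pkd2fl/fl Pax8rtTA TetOCre mTmG), and all were grown for 7 days in medium enriched with growth factors. The methods list hepatocyte, epidermal and fibroblast growth factor and serum in that medium. The 4 GDNF cultures (6, 12, 17 and 22) also received a 24 h pulse of glial-derived neurotrophic factor (GDNF), and the 4 control cultures (3, 7, 14 and 21) did not. The Cre in these cells depends on doxycycline, which belongs to a separate experiment of the study, so *Pkd2* inactivation is not compared here. RNA was taken from whole structures, so fewer cells of a type and less RNA per cell cannot be told apart.

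Chemokines are small secreted proteins that bind heparan sulfate on cell surfaces and in matrix and draw leukocytes along a gradient. They signal through receptors with several membrane spans that couple to inhibitory G proteins, while the atypical receptors (*Ackr1* to *Ackr4*) take up ligands without G protein signalling. In the kidney, injured tubule epithelium is a known source of *Ccl2*, *Cxcl1*, *Cxcl2* and *Ccl20*, stromal cells are the classical source of *Cxcl12*, and most signalling receptors belong to leukocytes.

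Ligand RNA was plentiful in the tubuloids and receptor RNA was sparse. Levels between genes are given in the authors' length-normalised transcript abundance (TPM), for the transcript of each gene with the most counts. With a mean of at least 1 TPM over all 8 cultures taken as expressed, 17 of 38 ligands and 4 of 20 receptors were expressed, 21 of 58 genes in all. The order began with *Ccl20* (mean 71.9 TPM), *Cxcl5* (55.6), *Cxcl14* (43.5), *Cxcl16* (39.3), *Cxcl12* (35.7), *Cxcl1* (32.8), *Cx3cl1* (26.1), *Ccl27a* (25.1), *Ccl7* (23.0), *Ccl2* (22.3), *Ccl25* (15.1) and *Cxcl2* (9.97). The ranges of neighbours in this order overlapped over the cultures, so their places are not separated beyond the spread, and *Ccl20* was first in 6 of 8 cultures. In control 14 *Cxcl14* came first at 157 TPM, and in GDNF 17 *Cxcl12* came first at 68.1 TPM. The expressed receptors were *Ackr3* (9.02 TPM), *Cxcr4* (1.79), *Ccr2* (1.48) and *Ackr4* (1.02). *Ackr4* stood just inside the limit and *Cxcl17*, at 0.997 TPM, just outside it. Summed over the 38 ligands, the cultures held between 333 and 548 TPM, and summed over the 20 receptors between 11 and 24.4 TPM, of which *Ackr3* made up 41.5% to 64.1%.

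Of the other 37 genes, 13 passed the filter on low counts at a mean under 1 TPM, 15 had at least 3 counts in some culture but did not pass, and 2 (*Cxcl9* and *Cxcr2*) never had more than 2 counts in a culture. The remaining 7, namely the ligands *Ccl19*, *Ccl21a*, *Ccl21b*, *Ccl21c*, *Ccl22* and *Ccl26* and the receptor *Cxcr1*, had 0 counts in all 8 cultures. A count of 0 allows a level of up to 0.0308 to 0.0411 in counts scaled to library size (CPM) in 1 culture, taking 3 counts as the limit and counting error only. The genes at 0 include the ligands of the lymph node receptor CCR7, and *Ccr7* itself reached 28 counts in GDNF 22 and 0 to 14 counts elsewhere. *Ccl21a*, *Ccl21b* and *Ccl21c* are near-identical copies, as are *Ccl27a* and *Ccl27b*, and their reads may not be separable.

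**Figure D1:**
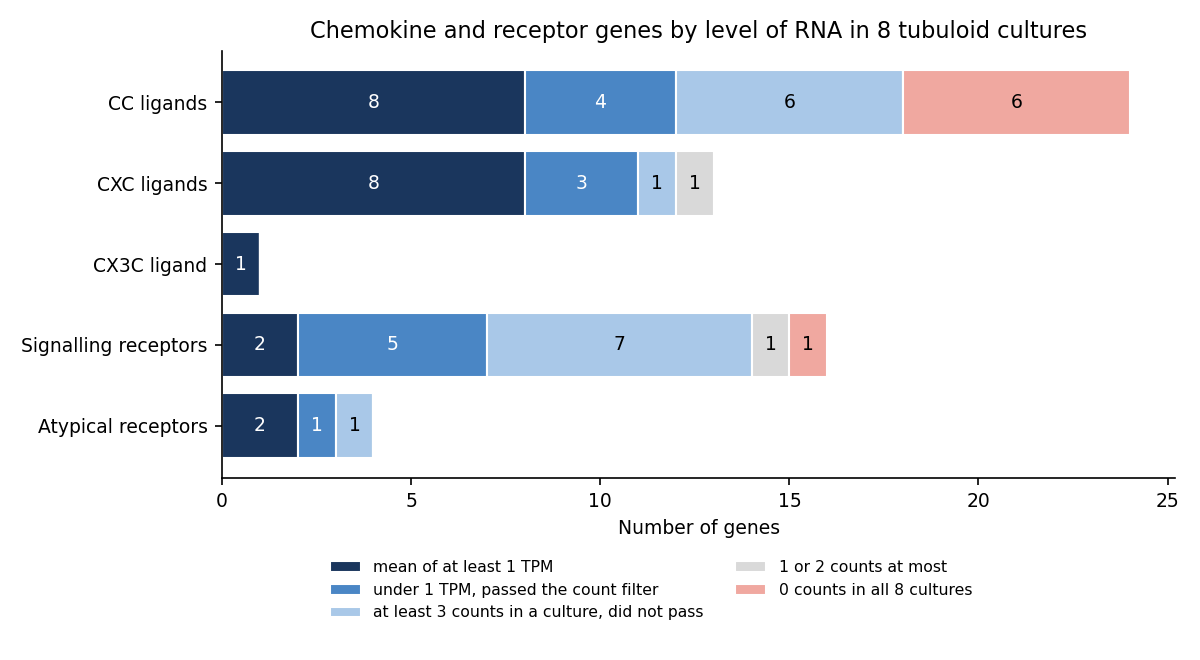
Number of chemokine and receptor genes (x axis) in each class of RNA level over the 8 cultures, one bar per family. The CC and CXC ligands each have 8 genes at a mean of at least 1 TPM, the signalling receptors 2 of 16.

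For most of the expressed ligands named here the receptor that leukocytes use was under 1 TPM. Of these receptors *Cxcr2*, *Ccr6*, *Ccr4* and *Ccr3* were at or near 0. CXCR2 is the mouse receptor of *Cxcl1*, *Cxcl2*, *Cxcl3* and *Cxcl5*, and *Cxcr2* had 0 to 2 counts per culture. CCR6 is the receptor of *Ccl20*, and *Ccr6* had 18 counts in control 7, 3 counts in control 21 and 0 counts in the other 6 cultures. These counts add up 7 transcripts that can share reads, and the transcript with the most counts had 3 in each of controls 7 and 21. *Cxcr6*, for the ligand CXCL16, had a mean of 0.755 TPM, and *Ccr10*, for CCL27, a mean of 0.339 TPM. *Ccr9*, for CCL25, stood at 0.176 TPM, *Ccr4*, for CCL17, had at most 5 counts, and *Ccr3*, for CCL11, at most 8 counts. *Cxcl12* and the CCR2 ligands *Ccl2* and *Ccl7* differed from these, since *Cxcr4*, *Ackr3* and *Ccr2* were all among the expressed receptors.

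**Figure D2:**
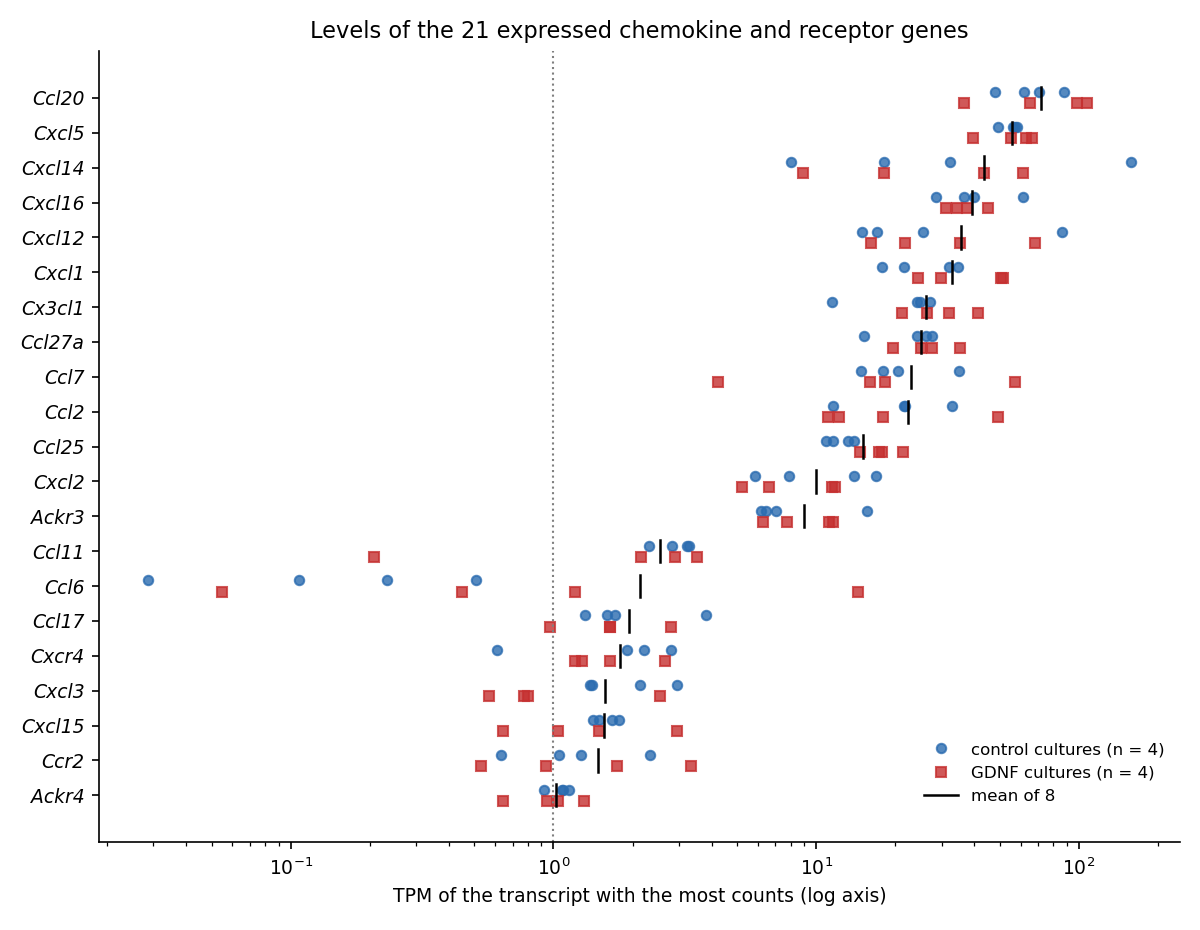
TPM (log axis) of the 21 expressed genes in each culture, blue circles for the 4 control and red squares for the 4 GDNF cultures, with the mean of the 8 as a black line and 1 TPM dotted. *Ccl20* and *Cxcl5* head the order, and *Ccl6* spans the widest range, from 0.0287 TPM in control 21 to 14.4 TPM in GDNF 17.

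Of the 21 expressed genes, 9 lie in the known chemokine clusters of the mouse genome (GRCm38) described here. *Cxcl5*, *Cxcl3*, *Cxcl15*, *Cxcl1* and *Cxcl2* lie on chromosome 5 between 90759298 and 90905938, and all 5 were expressed, from 1.56 to 55.6 TPM. *Ccl2*, *Ccl7*, *Ccl11*, *Ccl12*, *Ccl8* and *Ccl1* lie on chromosome 11 between 82035577 and 82179812, and the first 3 of these were expressed. A further CC group on chromosome 11 between 83525778 and 83664683 (*Ccl5*, *Ccl9*, *Ccl6*, *Ccl3* and *Ccl4*) held 1 expressed gene, *Ccl6*. Promoters were available for 42 of the 58 genes, and 16 of the 21 expressed, in the RefSeq table of GRCm38.p6. The 120 bases before the start are printed for *Cxcl1*, *Cxcl2* and *Cxcl3*, neighbours whose levels differ widely, for *Ccl20*, the first in the order, and for *Cxcl12* and *Cxcl14*, a pair of ligands with their highest level in the same culture. Capitals mark the letters GGG and TTCC with any 3 bases between them on either strand, a form of the kappaB motif to which NF-kappaB binds; where both strands match at neighbouring positions the capitals join. The positions are chr5:90891125-90891244, chr5:90903779-90903898, chr5:90785981-90786100, chr1:83116646-83116765 and chr6:117168415-117168534, all on the plus strand, and chr13:56296552-56296671 on the minus strand.
Cxcl1: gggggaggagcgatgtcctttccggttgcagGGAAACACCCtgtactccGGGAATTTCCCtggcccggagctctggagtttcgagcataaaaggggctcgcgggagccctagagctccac
Cxcl2: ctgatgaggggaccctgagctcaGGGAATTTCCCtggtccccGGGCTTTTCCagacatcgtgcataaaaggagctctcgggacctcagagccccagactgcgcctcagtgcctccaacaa
Cxcl3: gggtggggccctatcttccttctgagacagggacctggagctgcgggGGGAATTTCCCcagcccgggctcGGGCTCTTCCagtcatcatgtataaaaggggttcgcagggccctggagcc
Ccl20: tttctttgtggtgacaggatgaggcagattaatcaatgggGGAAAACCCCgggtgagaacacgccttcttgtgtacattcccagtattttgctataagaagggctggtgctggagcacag
Cxcl12: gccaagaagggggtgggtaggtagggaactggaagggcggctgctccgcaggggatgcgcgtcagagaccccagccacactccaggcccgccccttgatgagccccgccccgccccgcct
Cxcl14: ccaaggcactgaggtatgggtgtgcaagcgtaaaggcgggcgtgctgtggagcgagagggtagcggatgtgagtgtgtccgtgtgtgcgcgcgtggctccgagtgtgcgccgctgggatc
*Cxcl1*, *Cxcl2* and *Cxcl3* share the letters GGGAATTTCC on the gene's strand, beginning 71, 97 and 73 bases before the start, and each holds another match within the printed stretch. *Ccl20* holds 1 match, on the opposite strand, and *Cxcl12* and *Cxcl14* hold none in their windows. Over the full windows, from 250 bases before to 50 after the start, 9 of the 42 genes held the letters, 4 of the 16 expressed and 5 of the 26 not expressed, beside 5.56% of all 32851 windows and 6.31% of all genes in the table. The other 5 were *Ccl1*, *Ccl9*, *Ccr3*, *Ccr6* and *Cxcl10*.

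The comparison of GDNF with control cultures asks whether the pulse left a change in these genes by culture day 7. No chemokine or receptor passed it. Of the 58 genes, 34 could be tested (24 ligands and 10 receptors), and the quasi-likelihood test of edgeR, adjusted by Benjamini-Hochberg over 16557 genes, called 0 of them at an adjusted p of 0.05, with 0.192 (*Cxcl16*) as the smallest value. The same test called 0.0% of all genes, where the smallest adjusted p was 0.167. DESeq2 called 0 of the 9 members to which it gave an adjusted p, beside 14.1% of the 8889 genes with one. With limma-voom 0 members were called, and 0 of all 16557 genes. At an unadjusted p of 0.05 edgeR marked 1 member as higher in GDNF cultures (*Ccl6*) and 1 as lower (*Cxcl16*), beside 9.25% of all genes in the upward and 12.9% in the downward direction. Together these are 5.88% of the members and 22.1% of all genes. In CPM scaled by the trimmed mean of M-values (TMM), 0 of 34 members separated the groups without overlap, beside 13.2% of all genes.

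The estimates leaned downward without passing the test. Of the 34 members, 23 had a negative log2 fold change (67.6%), beside 47.5% of all genes, and the medians were -0.26 and 0.03. This share depended on the scaling: with library size only, which moves the median of all genes to 0.25, 17 of 34 were negative (50.0%), beside 31.9% of all genes, and with a correction for transcript length 18 of 34 were negative (52.9%), beside 53.7%. The transcripts of expressed members were short, with a median of 1436 bp beside 2674 bp for all genes tested. The members also varied more between cultures than most genes, with a median standard error of 0.51 on the log2 scale (0.43 for the expressed), beside 0.24 for all genes. The 95% intervals of 19 of the 21 expressed members included 0.

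**Figure D3:**
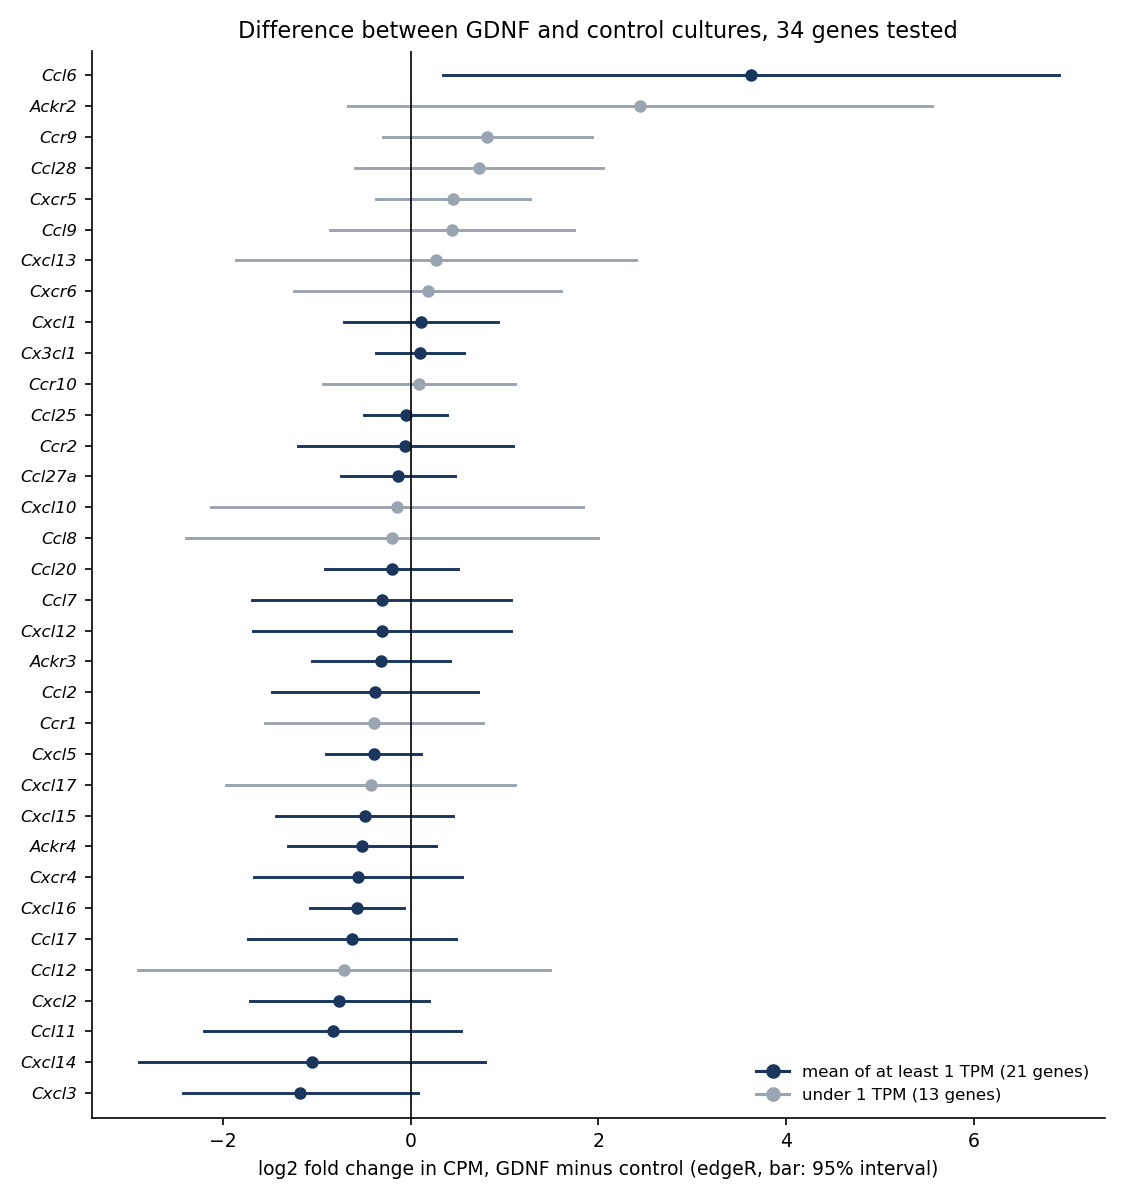
log2 fold change in CPM between GDNF and control cultures (x axis, points) with 95% intervals from edgeR (bars) for the 34 genes tested, dark for the 21 expressed and grey for the 13 under 1 TPM. The intervals of *Ccl6* and *Cxcl16* exclude 0 before adjustment, and those of *Ccl25* (-0.50 to 0.39) and *Cx3cl1* (-0.37 to 0.56) are the narrowest around 0.

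The neutrophil-attracting CXC ligands of the chromosome 5 cluster were abundant in both groups. *Cxcl5* stood at 82.3, 58.2, 58.8 and 47.3 CPM in control cultures 3, 7, 14 and 21, and at 55.7, 45.8, 54.7 and 31.0 CPM in GDNF cultures 6, 12, 17 and 22. Control 3 was above and GDNF 22 below all other cultures, the rest overlapped, and the log2 fold change was -0.40 ± 0.23 (SE; edgeR adjusted p = 0.317). *Cxcl1* was at 28.2, 18.9, 12.8 and 9.81 CPM in the controls and 25.8, 11.6, 24.4 and 13.4 CPM in the GDNF cultures, with complete overlap and a log2 fold change of 0.11 ± 0.37 (SE).

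*Cxcl2*, which shares the receptor, was at 13, 5.32, 3.96 and 10.6 CPM in the controls and 6.66, 3.59, 6.41 and 2.68 CPM in the GDNF cultures. Controls 3 and 21 were above every GDNF culture, and controls 7 and 14 lay among them (log2 fold change -0.76 ± 0.43, SE; edgeR adjusted p = 0.311). *Cxcl3* was far less abundant, at 1.87, 0.888, 1.87 and 0.809 CPM in the controls and 0.421, 0.409, 1.29 and 0.272 CPM in the GDNF cultures. GDNF 17 was the only GDNF culture within the range of the controls, and the log2 fold change was -1.18 ± 0.56 (SE; unadjusted p = 0.062 and adjusted p = 0.245 in edgeR). Without GDNF 17 it was -1.88, with an adjusted p of 0.281 in edgeR. That the groups then no longer overlapped follows from leaving out this culture, and 17.7% of all genes did not overlap in that run. *Cxcl15*, a ligand known from lung epithelium, was at 2.71, 1.87, 2.36 and 2.05 CPM in the controls and 0.734, 1.11, 1.58 and 2.97 CPM in the GDNF cultures, where GDNF 22 stood above every control. Summed over *Cxcl1*, *Cxcl2*, *Cxcl3* and *Cxcl5*, the level ranged from 85.5 to 109 TPM in the control and from 75.3 to 132 TPM in the GDNF cultures. The interferon-induced ligands *Cxcl9*, *Cxcl10* and *Cxcl11* together held 0.138 to 1.80 TPM per culture.

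A pair of CXC ligand genes known from platelets lies between *Cxcl5* and *Cxcl3* and falls outside the symbol rule. *Ppbp* (CXCL7, a CXCR2 ligand) had 12844 counts in control 3 and 24256 in control 21, but 370 to 2122 counts in the other 6 cultures (log2 fold change -2.55 ± 1.01, SE; edgeR adjusted p = 0.193). Controls 7 and 14 lay below every GDNF culture. *Pf4* (CXCL4) had 1728 counts in control 21 and 24 to 277 counts elsewhere. Of the tubule epithelium markers, *Krt8*, *Krt18* and *Cldn4* were also highest in controls 3 and 21 in TPM. *Epcam*, *Pax8* and *Pax2* were instead highest in GDNF 6, at 199, 110 and 7.42 TPM. *Cdh1* was highest in control 21, but in control 3, at 27.6 TPM, it lay below GDNF 6, 12 and 22. A link of these markers to *Ppbp* or *Pf4* was not tested.

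Among the membrane-bound ligands, *Cxcl16* had the smallest p of all members. *Cxcl16* (chromosome 11, 70454389 to 70459984), which encodes a scavenger and adhesion protein that is shed as a chemokine, was at 83.4, 55.8, 43.6 and 87.1 CPM in the controls and 45.1, 38.2, 46.1 and 52.0 CPM in the GDNF cultures. Controls 3, 7 and 21 were above all GDNF cultures and control 14 was below 3 of them, so the groups overlapped. The means were 67.5 ± 21.2 and 45.4 ± 5.66 CPM in control and GDNF cultures (SD, n = 4 cultures each). The log2 fold change was -0.57 ± 0.22 (SE), with an unadjusted p of 0.029 in edgeR and an adjusted p of 0.192. DESeq2 gave an adjusted p of 0.083, and the exact two-sided permutation test over the 70 assignments gave p = 0.114, where 0.0286 is the smallest possible. The log2 fold change was -0.46 without control 3 and also without control 21, and -0.34 with library size only. Exons of *Cxcl16* overlap those of *Zmynd15* on the other strand, and how strand was handled is not given in the sources used here. The sheddases *Adam10* and *Adam17*, which release both membrane-bound ligands, were at 27.0 and 14.7 TPM with log2 fold changes of 0.14 ± 0.15 and 0.16 ± 0.13 (SE).

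*Cx3cl1* (fractalkine) was among the most even ligands. It stood at 31.1, 47.5, 48.5 and 49.4 CPM in the controls and 35.6, 50.5, 41.7 and 61.1 CPM in the GDNF cultures, and only control 3 lay apart from its group. The log2 fold change was 0.10 ± 0.21 (SE), with a 95% interval of -0.37 to 0.56, and turned to -0.04 without control 3 and -0.05 without GDNF 22. Its receptor gene *Cx3cr1* had 14 to 103 counts per culture, a mean of 0.226 TPM.

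**Figure D4:**
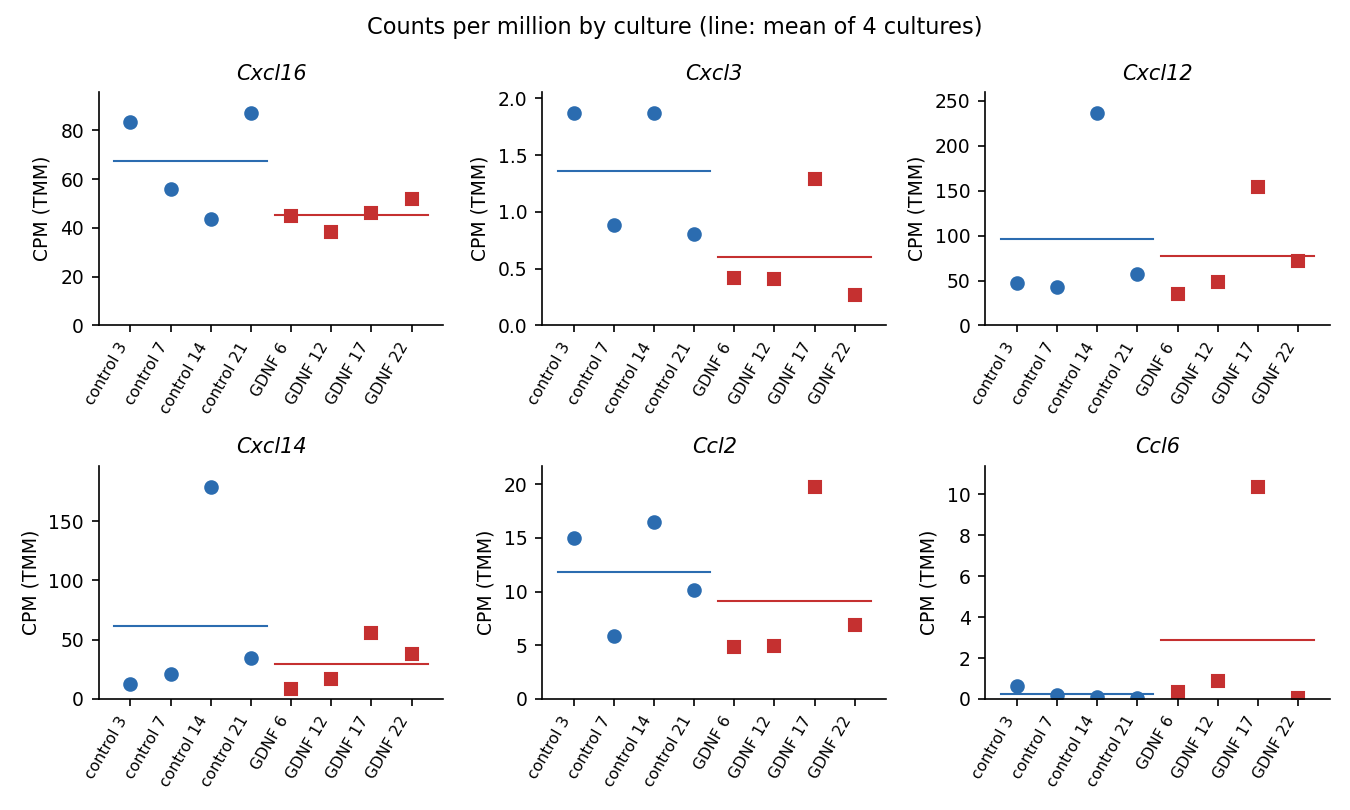
CPM (TMM-scaled, y axis from 0) of 6 ligands in each culture, blue circles for control and red squares for GDNF, with the mean of each group as a line. *Cxcl16* and *Cxcl3* overlap through control 14 and GDNF 17, while *Cxcl12* and *Cxcl14* are set by control 14, and *Ccl6* by GDNF 17 at 10.4 CPM.

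*Cxcl12* and *Cxcl14* varied by culture far more than by group. *Cxcl12* (chromosome 6, 117168535 to 117181368), the homeostatic ligand of CXCR4, was at 47.0, 43.3, 236 and 57.3 CPM in the controls and 35.4, 48.4, 154 and 71.6 CPM in the GDNF cultures. *Cxcl14* (chromosome 13, 56288643 to 56296811), a constitutive epithelial and fibroblast ligand, was at 12.5, 20.7, 179 and 34.2 CPM in the controls and 8.71, 16.6, 56.0 and 37.7 CPM in the GDNF cultures. Control 14 held the highest value of both, and GDNF 17 the next. The log2 fold changes of -0.31 ± 0.62 and -1.05 ± 0.83 (SE) both turned when control 14 was left out, to 0.65 and 0.40.

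The summed stroma markers were highest in the same cultures. All 8 of the stroma list were above 1 TPM on average, their sum ran from 166 to 1337 TPM in the control and from 212 to 1073 TPM in the GDNF cultures, and control 14 had the highest and GDNF 17 the next. GDNF 12 and 22 followed at 925 and 871 TPM, while *Cxcl12* and *Cxcl14* were at 21.8 and 18.1 TPM in GDNF 12. The matrix proteoglycan gene *Dcn* stood at 178 TPM in control 14, 77.8 TPM in GDNF 17 and 3.75 to 43.2 TPM in the others. *Postn* and *Pdgfra* had the same order of highest and next culture, and the other stroma markers did not. *Col1a1* was highest in GDNF 12 (178 TPM), and *Pdgfrb* was higher in GDNF 12, 17 and 22 than in control 14 (54.2 TPM). *Lum* stood at 46.4 TPM in control 14 but 12.5 TPM in GDNF 17. The 7 tubule epithelium markers had their lowest sum in control 14, 371 TPM, and 872 to 3164 TPM elsewhere. The part of these cells in the levels of *Cxcl12* and *Cxcl14* was not tested. The receptors of CXCL12 followed in part: *Ackr3*, which scavenges it, was at 24.6, 20.3, 45.1 and 17.3 CPM in the controls and 28.9, 17.9, 25.9 and 13.7 CPM in the GDNF cultures, again highest in control 14. *Cxcr4* was at 2.96, 2.50, 3.17 and 0.643 CPM in the controls and 2.59, 1.17, 1.49 and 1.04 CPM in the GDNF cultures, with control 21 lowest. Their log2 fold changes were -0.31 ± 0.33 and -0.56 ± 0.50 (SE).

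**Figure D5:**
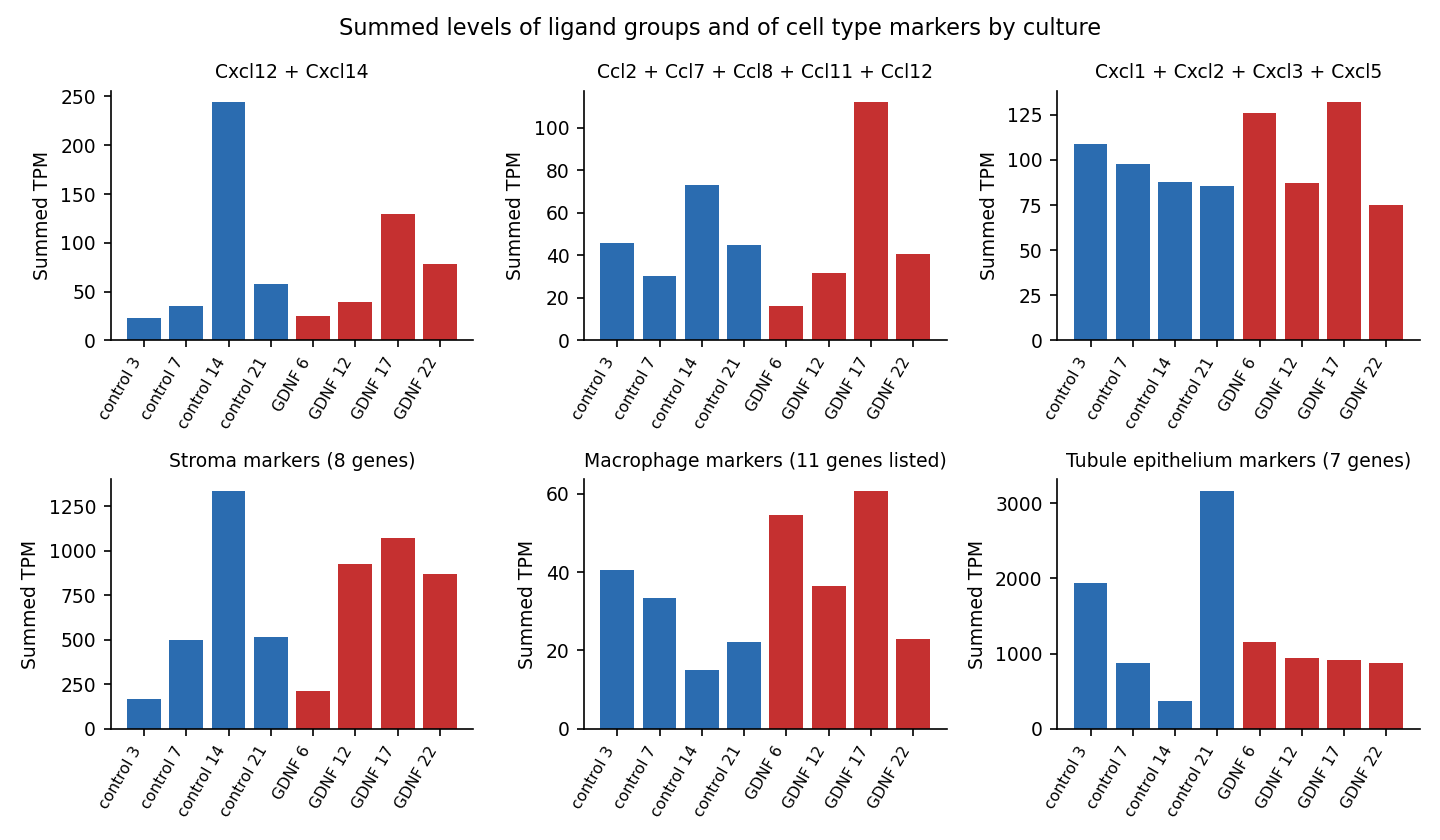
Summed TPM (y axis from 0) in each culture, blue for control and red for GDNF, of 3 groups of ligands in the upper row and 3 lists of cell type markers in the lower row. *Cxcl12* with *Cxcl14* and the stroma markers both peak in control 14, and the CCR2 and CCR3 ligands peak in GDNF 17 at 112 TPM.

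The monocyte-attracting CC ligands of chromosome 11 were highest in GDNF 17 and control 14. *Ccl2* was at 15.0, 5.84, 16.5 and 10.2 CPM in the controls and 4.80, 4.94, 19.8 and 6.87 CPM in the GDNF cultures. *Ccl7* was at 14, 7.41, 17.4 and 8.30 CPM in the controls and 1.81, 6.41, 22.9 and 6.90 CPM in the GDNF cultures. In both genes GDNF 17 stood above every control while the other GDNF cultures lay near or below the lowest one. Their log2 fold changes were -0.38 ± 0.49 and -0.31 ± 0.62 (SE), and without GDNF 17 they were -1.10 and -1.23, with unadjusted p of 0.014 and 0.032 and adjusted p of 0.281 and 0.283 in edgeR.

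*Ccl11* (eotaxin) was even in the controls, at 2.12, 2.16, 2.19 and 1.76 CPM, and ran from 0.119 CPM in GDNF 6 over 1.16 and 1.56 CPM to 1.78 CPM in GDNF 22. Only GDNF 22 reached the range of the controls, and the exact two-sided permutation test gave p = 0.0571, the smallest among the expressed members. The low value of GDNF 6 rested on 11 counts, and the log2 fold change was -0.83 ± 0.61 (SE; edgeR adjusted p = 0.436). *Ccr2*, the receptor gene of *Ccl2* and *Ccl7*, was at 1.94, 2.36, 2.85 and 4.84 CPM in the controls and 1.01, 3.14, 1.68 and 5.69 CPM in the GDNF cultures, so that its highest cultures, GDNF 22 and control 21, were not those of its ligands. *Ccl8* and *Ccl12* were tested at 0.644 and 0.831 TPM.

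*Ccl6*, a CC ligand of myeloid cells, was marked as higher in GDNF cultures by 1 culture. It was at 0.623, 0.209, 0.0961 and 0.0238 CPM in the controls and 0.345, 0.868, 10.4 and 0.0372 CPM in the GDNF cultures, or 2 to 45 counts in the controls and 32, 87, 1010 and 3 counts in the GDNF cultures. GDNF 17 lay far above all others, GDNF 12 slightly above the highest control and GDNF 22 near the lowest. The log2 fold change of 3.62 ± 1.47 (SE; unadjusted p = 0.034, adjusted p = 0.199 in edgeR) came to 0.82 without GDNF 17, and the exact permutation p was 0.314. Other genes of myeloid cells were also highest in GDNF 17: *Ccl12* had 54 counts there and 0 to 41 elsewhere, and the lysozyme gene *Lyz2* stood at 35.0 TPM there and 0.446 to 8.87 TPM elsewhere.

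The macrophage list followed only in part, with its highest sum but low *Ptprc* and *Cd14* in GDNF 17. Of its 12 genes 11 were listed in the tables, 3 had a mean of at least 1 TPM, and their sum ran from 15.0 to 40.6 TPM in the control and from 22.9 to 60.7 TPM in the GDNF cultures, with *Cd14* as the largest term in 7 of 8. The defining receptor gene *Csf1r* was at 0.445 TPM in GDNF 17 and 0.257 TPM or less elsewhere, *Itgam* at 0.118 TPM and 0.0215 TPM or less. *Fcgr1* was at 0.0159 TPM or less in every culture. *Ptprc* stood at 0.289 TPM in GDNF 17 and 0.281 to 1.77 TPM elsewhere, and *Cd14* at 14.2 TPM and 8.41 to 34.5 TPM. In GDNF 17 *Cd68* (5.03 TPM) and *Mrc1* (0.181 TPM) lay within the range of the other cultures. In GDNF 17 *C1qa*, *C1qb* and *C1qc* stood at 1.08, 2.92 and 1.34 TPM, above every other culture. Of the 9 lymphocyte genes, all listed, the T and B cell genes *Cd3d*, *Cd3e* and *Ms4a1* were at or near 0 throughout, while the B cell receptor genes *Cd79a* and *Cd79b* passed the filter at means of 0.633 and 1.32 TPM. The list summed to 1.11 to 3.19 TPM in the control and 0.748 to 3.17 TPM in the GDNF cultures. The neutrophil list summed to 0.850 to 11.2 TPM, mostly *S100a8*, and its receptor gene *Csf3r* was at 0.0102 TPM or less. The part of such cells in the levels of *Ccl6* was not tested.

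*Ccl20*, the ligand that epithelium uses to attract CCR6-bearing lymphocytes and dendritic cells, led the order in both groups. *Ccl20* (chromosome 1, 83116766 to 83119167) was at 84.9, 70.4, 47.9 and 81.6 CPM in the controls and 84.3, 52.2, 29.4 and 81.2 CPM in the GDNF cultures. Control 14 and GDNF 17, the cultures with the most *Cxcl12*, were the lowest of their groups, and the groups overlapped throughout. The means were 71.2 ± 16.7 and 61.8 ± 26.0 CPM (SD, n = 4 cultures each), and the log2 fold change was -0.20 ± 0.32 (SE), with a 95% interval of -0.91 to 0.50. With library size only it was 0.03 and with the transcript length correction 0.09, so no direction can be given.

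The remaining CC ligands were even or low. *Ccl27a*, a ligand known from skin epithelium, was at 35.9, 30.0, 24.5 and 15.6 CPM in the controls and 32, 25.6, 21.9 and 16.7 CPM in the GDNF cultures, nearly the same range in both groups. Its exons overlap those of *Il11ra1*. *Ccl25*, known from thymus and gut epithelium, was at 18.3, 14.6, 14.9 and 11.2 CPM in the controls and 16.1, 14.2, 11 and 15.6 CPM in the GDNF cultures, a log2 fold change of -0.05 ± 0.20 (SE). TPM values carry no correction for composition and are given here for the non-coding transcript NR_033527 of *Ccl25*. They ranged from 10.9 to 13.95 in the controls and from 14.7 to 21.4 in the GDNF cultures, without overlap. The share of all genes without overlap in TPM was not counted. Counts of the coding transcript NM_009138 overlapped, at 333 to 592 in the controls and 296 to 559 in the GDNF cultures. The exons of *Ccl25* overlap those of *Elavl1* on the other strand. *Ccl17*, a dendritic cell and epithelial ligand of CCR4, was at 0.582, 1.22, 0.512 and 0.512 CPM in the controls and 0.453, 0.718, 0.421 and 0.235 CPM in the GDNF cultures, with control 7 alone above the rest.

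Of the ligands under 1 TPM, those that were tested overlapped between the groups. The homeostatic B cell ligand *Cxcl13* ran from 0.0104 to 0.310 CPM in the controls and from 0.0432 to 0.380 CPM in the GDNF cultures. *Cxcl10*, the CXCR3 ligand induced by interferon, ran from 0.0731 to 1.02 CPM and from 0.16 to 1.06 CPM, with its highest values in GDNF 6 and control 21. *Cxcl17*, a mucosal ligand, ran from 0.245 to 0.951 CPM and from 0.111 to 0.787 CPM. *Ccl9*, a relative of *Ccl6*, ran from 0.143 to 0.982 CPM and from 0.446 to 1.21 CPM, and *Ccl28*, a mucosal epithelial ligand, from 0.115 to 0.250 CPM and from 0.103 to 0.442 CPM. *Ccl5*, a T cell and macrophage ligand, did not pass the filter, with 6, 5, 0 and 6 counts in the controls and 9, 13, 14 and 20 counts in the GDNF cultures. Every GDNF culture was above every control, on so few counts that the main edgeR test left it out. DESeq2 gave an unadjusted p of 0.125 and no adjusted p. With no filter on low counts 1 member separated the groups without overlap, beside 11.1% of all genes. *Ccl3* and *Ccl4*, ligands made by macrophages and T cells, had at most 5 and 13 counts.

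The other atypical receptors were low. *Ackr4*, which scavenges CCL19, CCL21 and CCL25, was at 1.97, 1.42, 1.5 and 1.12 CPM in the controls and 1.48, 0.997, 0.678 and 1.04 CPM in the GDNF cultures (log2 fold change -0.52 ± 0.35, SE; exact permutation p = 0.0857). Only GDNF 6 exceeded the lowest control, and the exons of *Ackr4* overlap those of *Acad11*. *Ackr2*, which scavenges inflammatory CC ligands, had 2 to 60 counts in the GDNF cultures and 20 counts in control 7 but 0 counts in the other 3 controls. These counts add up 2 transcripts that can share reads. The transcript with the most counts had 1 to 32 in the GDNF cultures and 10 in control 7. The log2 fold change of *Ackr2*, 2.44 ± 1.4 (SE; 2.48 in DESeq2), rests on control 7 alone on the control side. It did not pass the test (edgeR adjusted p = 0.320). *Ackr1*, the receptor of red cells and venules, had 8 and 9 counts in GDNF 6 and 17 and 0 in the others. Among signalling receptors under 1 TPM that were tested, *Ccr1*, *Ccr9*, *Ccr10*, *Cxcr5* and *Cxcr6*, log2 fold changes ran from -0.39 to 0.82 and no interval excluded 0.

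Related genes were read against the same background, 9.25% of all genes higher and 12.9% lower at an unadjusted p of 0.05 in edgeR. Of 9 chemokine family genes outside the symbol rule, 8 were tested, and at an unadjusted p of 0.05 in edgeR 0 were higher and 2 lower, *Ppbp* and *Mif*. *Mif*, a cytokine that binds CXCR2 and CXCR4, was at 1003 TPM on average, with a log2 fold change of -1.10 ± 0.29 (SE; edgeR adjusted p = 0.167). In CPM every GDNF culture was below every control, where 13.2% of all genes did not overlap. In TPM the groups overlapped, with GDNF 12 at 1030 and control 14 at 1002. Of 18 receptor signalling genes, 16 were tested, with 1 higher (*Elmo1*) and 4 lower (*Gnai3*, *Gnb1*, *Pik3cg* and *Rac1*). *Gnai3*, an inhibitory G protein subunit, had a log2 fold change of -0.55 ± 0.14 and the exchange factor partner *Elmo1* of 1.09 ± 0.34 (SE). The leukocyte genes *Rac2* and *Dock2* were too low to be tested.

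Of 25 inducing cytokines and NF-kappaB pathway genes, 24 were tested, with 2 higher (*Ikbkb* and *Nfkbiz*) and 0 lower, and a median log2 fold change of 0.10. *Nfkbiz*, which encodes a nuclear partner of NF-kappaB needed for some CXC ligands, had a log2 fold change of 0.56 ± 0.23 (SE; edgeR adjusted p = 0.200). The NF-kappaB target *Nfkbia* was at -0.12 ± 0.19, *Tnf* at 0.55 ± 0.44 and *Il6*, highest in GDNF 17 with 2016 counts, at 0.29 ± 0.57 (log2 fold change ± SE). *Il1b* was too low to be tested. Of 9 genes for cleavage and presentation, all tested, 0 were higher and 3 lower, namely the heparan sulfate carriers *Sdc1* (-0.66 ± 0.17) and *Sdc4* (-0.58 ± 0.19) and the sulfotransferase *Hs2st1* (-0.39 ± 0.17), and none of these lists held a gene past the adjusted p of 0.05.

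The depth was high and even beside the differences between cultures. Total counts over all transcripts ran from 72991721 to 97490625, in which a read that fits several transcripts of a gene is counted in each. The TMM factor of control 3 was 0.790, against 0.963 to 0.982 in the other controls and 1.07 to 1.11 in the GDNF cultures, so CPM values of control 3 are raised relative to its TPM. The labels do not say which cultures share an animal, and p-values then measure the spread between these samples. The endothelial list summed to 33.7 to 120 TPM in control and 56.8 to 145 TPM in GDNF cultures, mostly *Plvap*. *Emcn* followed at 9.04 to 30.2 TPM. The others were low, *Pecam1* at 1.77, *Cdh5* at 0.499, *Kdr* at 0.525 and *Tek* at 0.257 TPM or less.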

How the data were processed

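RNA-Seq libraries (SMART-Seq v4, poly-A selection) of 4 GDNF and 4 control tubuloid cultures were analysed. The authors mapped the reads with STAR, and the submitters' processing notes also name featureCounts, DESeq2 and the builds mm10 and GRCm38; versions and strand handling are not given in the sources used here. The deposited counts are whole numbers for 33068 RefSeq transcripts, without normalization. The deposited FPKM values are counts per transcript length and library total, and were used only for lengths, which came out whole within 0.01 for 100% of values. The deposited TPM values were used as they are, for the transcript with the most counts of each gene, and only for levels between genes.

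The counts of each symbol were added up, and edgeR 4.0.16 (R 4.3.3) gave the main test (filterByExpr, TMM, glmQLFit and glmQLFTest, two-sided, Benjamini-Hochberg over 16557 genes). The SE of a log2 fold change is its size over the square root of F, and CPM use TMM-scaled totals. Exact permutation tests compared mean log2 CPM (prior count 1) over 70 assignments. Alternatives were DESeq2 1.42.0, limma-voom (limma 3.58.1), other scalings and filters, 1 transcript per gene, a transcript length trend (spline, 5 degrees of freedom), a covariate for cultures with *Xist* RNA (2 of 4 in each group) and leaving out each culture. The edgeR steps were tested on simulated data. The groups share no culture numbers and the labels do not give the animals, so no pairing was used.

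The members and lists were chosen with earlier results of these data known. One member is counted but not reported here on its own. Named with values in each culture are the members with a mean of at least 1 TPM or an unadjusted p of 0.05 in edgeR. *Ppbp*, *Pf4*, *Lyz2*, *Dcn*, *C1qa* to *C1qc*, *Krt8*, *Krt18* and members under 1 TPM were picked from the lists after their values were seen. So were the other marker genes named with values. Coordinates and promoters are from RefSeq GRCm38.p6. Total counts per culture were 72991721 to 97490625; intervals and limits from counts cover counting error only. Python 3.11.15 (pandas 2.3.3, NumPy 2.4.6) and matplotlib 3.10.9 were used.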

Additional observations from a re-analysis of the deposited data

Results flagged for a closer look

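Each group of 4 cultures was examined, for each expressed gene, for a culture standing apart, by the gap to its neighbour over the whole range (Dixon's criterion at 95%). Of 42 groups, 8 held such a culture. The criterion gives about 1 in 20 for independent, normally distributed values. The 42 groups come from the same 8 cultures and were taken in CPM without logarithm, so the number is not set against that rate. The share over all genes was not counted. Control 14 stood apart in *Cxcl14* (179 CPM) and *Cxcl12* (236 CPM), with the stroma markers described above. GDNF 17 stood apart in *Ccl2* (19.8 CPM), *Ccl6* (10.4 CPM) and *Cxcl3* (1.29 CPM). Control 3 was low in *Cx3cl1* (31.1 CPM), control 21 low in *Ccl11* (1.76 CPM, beside 2.12 to 2.19 CPM in the other controls) and control 7 high in *Ccl17* (1.22 CPM).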

How the results depend on the processing

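Depth limits the 24 members that were not tested, which rest on few or no counts, and the p-values of the others are limited by the spread between cultures. At an adjusted p of 0.05 no member was called in any of the alternatives. Only DESeq2 called any gene at that limit, 14.1% of those with an adjusted p. The other runs called 0 of all genes, so their 0 does not set the members apart. At an adjusted p of 0.1 DESeq2 called 1 of the 9 members with a value, *Cxcl16*, beside 25.7% of all such genes. At an unadjusted p of 0.05 the number of members higher, 1 in edgeR, was 2 with DESeq2, 3 with no filter on low counts and 0 with the *Xist* covariate, and 0 to 2 when each culture was left out (0 without GDNF 17, control 14 or control 21), beside 9.25% of all genes in edgeR, 7.31% with DESeq2, 7.71% with no filter, 10.4% with the covariate and 5.19% to 10.2% with a culture left out. The number lower, 1 in edgeR, was 2 with DESeq2 and with limma-voom, 0 with library size only and 3 with no filter, and 0 to 3 when each culture was left out (0 without GDNF 6, GDNF 12 or control 3), beside 12.9% of all genes in edgeR, 12.4% with DESeq2, 11.7% with limma-voom, 5.13% with library size only, 11.2% with no filter and 7.88% to 15.3% with a culture left out. Members without overlap, 0 of 34, became 1 with library size only (16.6% of all genes) and 1 to 5 when each culture was left out, which leaves 3 cultures against 4 (13.7% to 25% of all genes, with 5 of 36 members beside 21.4% without control 21). The expressed members were 13 at a limit of 5 TPM, and 20 members passed a mean of at least 1 CPM.

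Of the 21 expressed members, 11 kept the direction of the log2 fold change in every alternative run, 10 lower and 1 higher (*Ccl6*). With library size only the value turned to 0.0277 for *Ccl20*, 0.10 for *Ccl27a*, 0.18 for *Ccl25* and 0.14 for *Ccr2*; with the transcript length trend to 0.0903 for *Ccl20*, 0.17 for *Ccl27a*, 0.0323 for *Ccl7* and 0.22 for *Ccl25*; and with 1 transcript per gene to 0.11 for *Ccl25*. Leaving out 1 culture gave ranges that crossed 0 for *Ccl20* (-0.39 to 0.0274), *Cxcl14* (-1.55 to 0.40), *Cxcl12* (-0.89 to 0.65), *Cxcl1* (-0.14 to 0.44), *Cx3cl1* (-0.0510 to 0.21), *Ccl27a* (-0.37 to 0.0422), *Ccl7* (-1.23 to 0.0345), *Ccl25* (-0.21 to 0.0645), *Ackr3* (-0.53 to 0.0564) and *Ccr2* (-0.62 to 0.24). The cause was not tested. No paired analysis was run, because the labels do not say which cultures share an animal. That some do is not excluded by their different numbers.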
